A study of Mus musculus with 6 samples.

Results

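The chaperonin TRiC and the myosin folding factors UNC45B and SMYD1 were examined in left ventricles of mice with cardiomyocyte-specific RBM20 overexpression and of control mice. The members were chosen by name, as the 8 genes of the TRiC ring (Tcp1, Cct2, Cct3, Cct4, Cct5, Cct6a, Cct7 and Cct8) together with Unc45b and Smyd1. All 10 were present among the 31273 gene symbols measured, and all 10 reached the mean of 1 TPM set for testing, as 12404 genes did. TPM is a level corrected for gene length and scaled to a fixed total of transcripts in each library.

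Polyadenylated RNA was sequenced from 3 overexpression and 3 control ventricles. RBM20 is a splicing regulator of the heart, and the study describes a knock-in of it in cardiomyocytes that is switched on by tamoxifen. The titles carry the word cre for the overexpression libraries and cki for the control libraries. The sources used here give neither age, strain and the promoter of the Cre nor whether the controls had Cre or tamoxifen, so effects of these and of RBM20 cannot be told apart.

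TRiC, also called CCT, is a barrel of a pair of stacked rings, each built from the 8 different subunits, which encloses newly made proteins and folds them with ATP. Actins and tubulins depend on it, as do many WD40 repeat proteins. Folding of myosin heads involves UNC45B, a chaperone of striated muscle that binds HSP90 and the myosin motor domain. SMYD1 is a lysine methyltransferase of heart and skeletal muscle that zebrafish and mice need to build sarcomeres.

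Rbm20 stood at 321, 913 and 907 TPM in overexpression replicates 1 to 3, against 74.9, 90.9 and 79.5 TPM in control replicates 1 to 3, so the targeted gene followed the labels. Esr1, whose ligand-binding part is used in tamoxifen-inducible Cre proteins, was at 53.0 to 217.8 TPM in the overexpression libraries and at 0.234 to 0.415 TPM in the control libraries. Overexpression replicate 1 alone had the Y-linked Ddx3y above 0 (88.1 TPM). Its Xist, a transcript of the inactive X chromosome, was at 0.0172 TPM, against 34.4 to 62.6 TPM in the other libraries. By these genes that library was of male type and all others were of female type, so sex was not balanced between the groups. Fits without that library are given below. Between 41600000 and 90000000 counted read ends per library were estimated from the smallest steps between TPM values. At gene lengths of GENCODE M21 that depth put at least 3250 read ends on each member in each library. If read ends were independent, the counting error would be at most 1.75%, which covers counting only. Ends of the same fragment are not independent, so the counting error may be larger. Mitochondrially encoded RNA took 38.7% ± 2.21 of TPM in overexpression and 49.7% ± 1.99 in control libraries (SD, n = 3 each), and TPM have a fixed total. Over all tested genes the median difference was 0.55 in deposited TPM on the log2 scale, a 1.46-fold shift. It was 0.01 once libraries had been brought to a common level by median of ratios, which sets the typical gene equal between libraries. Every member is therefore given in deposited TPM and after this rescaling. Marker RNA of several cell types also moved with the groups. All 8 macrophage and all 7 cycling cell markers were called higher under both scalings, where 59.0% of tested genes were higher in TPM and 22.2% after rescaling. Of 8 fibroblast markers 6 were higher and 0 lower in TPM, and 4 higher and 2 lower after rescaling. Of 10 cardiomyocyte markers 2 were higher and 5 lower in TPM, and 0 higher and 8 lower after rescaling, beside 9.09% and 24.0% of tested genes called lower. Of 7 endothelial markers 0 were called in TPM, and 3 were lower after rescaling. The summed macrophage markers were at 532 to 829 TPM in overexpression and 209 to 264 TPM in control libraries, the cycling cell markers at 109 to 170.4 against 42.6 to 46.6 TPM, and the fibroblast markers at 1205 to 1714 against 478 to 622 TPM. The summed cardiomyocyte markers, all 10 of them well above 0, were at 37093 to 40513 against 40878 to 45790 TPM. TRiC is made by all these cells, and the part of these markers' cells in the results below was not tested. In bulk ventricle, fewer cells of a type and less RNA per cell cannot be told apart.

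All 8 TRiC subunits rose with overexpression, under both scalings. Their ratios of mean TPM lay between 1.83 for Tcp1 and 2.42 for Cct3, and between 1.18 and 1.56 after rescaling. In the moderated limma test across all tested genes, all 10 members were called higher in deposited TPM, where 59.0% of tested genes were called higher and 9.09% lower. After rescaling the 8 subunits and Smyd1 were called higher and Unc45b was not called, with 22.2% of tested genes called higher and 24.0% lower. For the 8 subunits the median on the log2 scale was 1.14 (TPM) and 0.52 (rescaled), beside 0.55 and 0.01 for all tested genes.

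**Figure D1:**
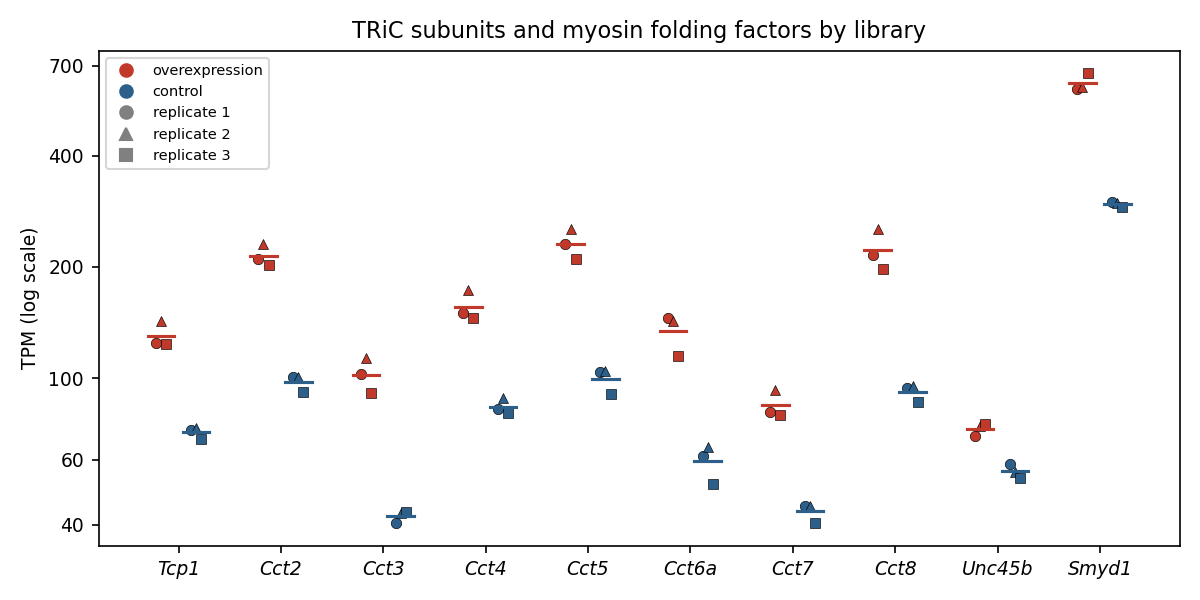
TPM of each member in each library on a log axis, with overexpression libraries left of control libraries and bars for group means. Overexpression and control libraries do not overlap for any of the 10 genes, and the groups lie closest for Unc45b.

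The rise was largest in 3 subunits. Cct8, the theta subunit, stood at 215, 253 and 198 TPM in overexpression libraries, against 94.0, 95.1 and 86.2 TPM in control libraries. Cct3, the gamma subunit, was at 102, 113 and 91.4 TPM in overexpression libraries, against 40.5, 43.0 and 43.3 TPM in control libraries. Cct5, the epsilon subunit, was at 230.2, 254 and 210.0 TPM with overexpression, against 103.5, 104.5 and 90.5 TPM in control libraries. Each lowest overexpression library thus lay above each highest control library, and overexpression replicate 2 was the highest library for all 3 genes. The log2 differences were 1.26 for Cct8 (SE 0.108, adjusted p = 4.37e-05), 1.25 for Cct3 (SE 0.103, adjusted p = 3.73e-05) and 1.21 for Cct5 (SE 0.103, adjusted p = 4.25e-05). After rescaling they were 0.64 (SE 0.0794, adjusted p = 0.000475), 0.63 (SE 0.0793, adjusted p = 0.000481) and 0.59 (SE 0.0788, adjusted p = 0.000679). Of all tested genes 10.9% had a larger TPM difference than Cct8, and 13.4% a larger one after rescaling. On GRCm38 these genes lie on chromosome 16 at 87483326 to 87495873 (Cct8, minus strand), chromosome 3 at 88297116 to 88321767 (Cct3, plus strand) and chromosome 15 at 31590800 to 31601804 (Cct5, minus strand).

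Cct2 and Cct6a followed closely. The beta subunit gene Cct2 was at 210.2, 230.1 and 202 TPM in overexpression libraries, against 100.7, 100.5 and 91.8 TPM in control libraries. For Cct6a, the zeta subunit, the values were 145, 142 and 115 TPM in overexpression libraries and 61.6, 65.1 and 51.7 TPM in control libraries. In TPM, replicate 3 was the lowest library of its group for both genes in both groups, though replicate numbers do not link libraries between groups. After rescaling, overexpression replicate 3 was the highest of its group for Cct2. Cct2 differed by 1.12 on the log2 scale (SE 0.0891, adjusted p = 3.22e-05) in TPM and by 0.50 (SE 0.0727, adjusted p = 0.0010) after rescaling. Cct6a differed by 1.16 (SE 0.127, adjusted p = 0.000118) in TPM and by 0.54 (SE 0.102, adjusted p = 0.00352) after rescaling. The positions are chromosome 10, 117051001 to 117063814, minus strand (Cct2) and chromosome 5, 129786998 to 129846371, plus strand (Cct6a).

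The smallest rises were those of Tcp1, Cct4 and Cct7. Tcp1, the alpha subunit, stood at 124, 143 and 124 TPM in overexpression libraries, against 72.4, 73.3 and 68.3 TPM in control libraries. Cct4, the delta subunit, was at 150.3, 173 and 145 TPM with overexpression and at 82.4, 88.4 and 80.3 TPM in control libraries. Cct7, the eta subunit, was at 81.2, 93.1 and 79.6 TPM with overexpression and at 45.0, 45.1 and 40.5 TPM in control libraries. No library of either group reached the range of the other group. The same held for all 10 members in TPM, where 62.1% of tested genes had every overexpression library above every control library and 10.4% had every one below. After rescaling the 8 subunits and Smyd1 lay above without overlap, as 28.2% of tested genes did, and Unc45b lay below, as 28.8% did. The log2 differences in TPM were 0.86 for Tcp1 (SE 0.0931), 0.89 for Cct4 (SE 0.0966) and 0.94 for Cct7 (SE 0.101), with adjusted p between 0.000112 and 0.000117. After rescaling they were 0.24 for Tcp1 (SE 0.0736, adjusted p = 0.0305), 0.27 for Cct4 (SE 0.0713, adjusted p = 0.0169) and 0.32 for Cct7 (SE 0.0782, adjusted p = 0.0109). Rescaled calls of these 3 genes were lost when single libraries were left out: for Tcp1 without overexpression replicate 2 or 3 or control replicate 2 or 3 (adjusted p = 0.0774, 0.066, 0.101 and 0.115), for Cct4 without control replicate 2 or 3 (adjusted p = 0.0529 and 0.0743), and for Cct7 without control replicate 3 (adjusted p = 0.0568). Tcp1 lies on chromosome 17 at 12915701 to 12925067, Cct4 on chromosome 11 at 22990519 to 23003780 and Cct7 on chromosome 6 at 85451514 to 85468475, all on the plus strand.

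The sources used here do not say whether reads were counted by strand, and 4 subunit genes share exon bases with a gene on the opposite strand that was measured above 1 TPM. Cct8 shares 192 of its 3088 exon bases with Usp16, which was at 55.4 TPM in overexpression and 19.7 TPM in control libraries (group means). Tcp1 shares 141 of 5030 exon bases with Mrpl18, at 59.0 against 93.7 TPM. Cct6a shares 452 of 3620 with Psph, at 2.23 against 1.71 TPM, and Cct7 shares 214 of 6778 with Pradc1, at 6.74 against 6.42 TPM. The part of shared reads in these values was not tested.

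**Figure D2:**
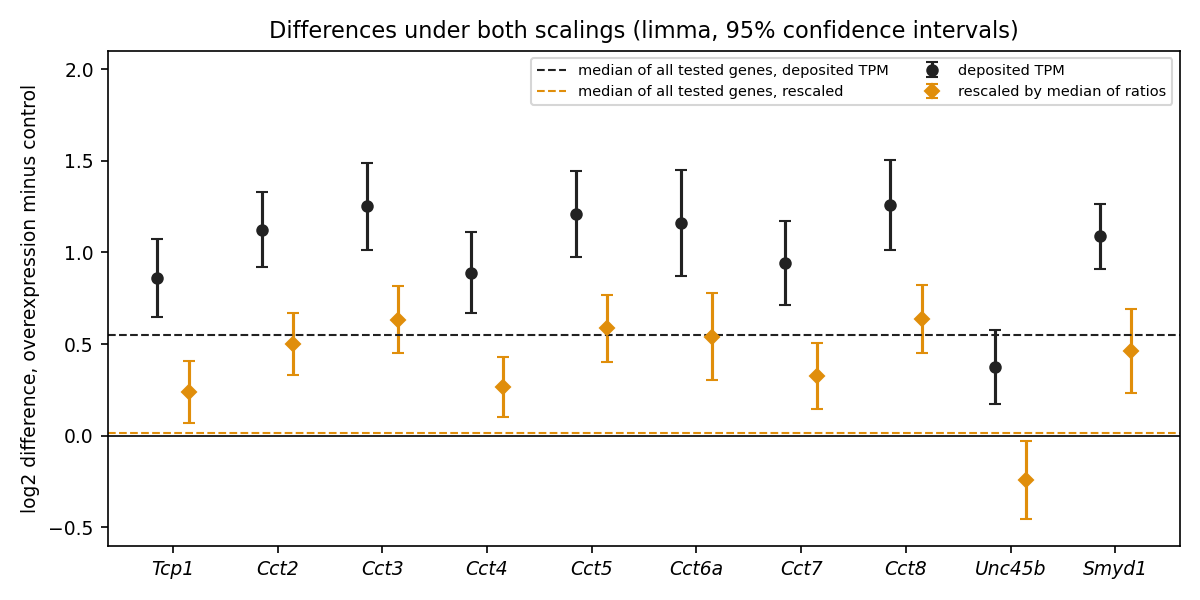
Log2 differences, overexpression minus control, with 95% confidence intervals from limma, for each member in deposited TPM (circles) and after rescaling (diamonds); dashed lines mark the medians of all tested genes, 0.55 and 0.01. The intervals of the 8 subunits and of Smyd1 lie above 0 under both scalings, and that of Unc45b lies above 0 in TPM and below 0 after rescaling.

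The share of each subunit in the summed TPM of the ring is the same before and after median of ratios rescaling, which applies 1 factor per library, but not under quantile normalization, for which shares were not computed. The summed TPM of the 8 subunits was 1275 ± 119 in overexpression and 589 ± 32.4 in control libraries (SD, n = 3 each), and the 8 genes moved unequally within it. Tcp1 made up 10.2% ± 0.372 of the sum in overexpression and 12.1% ± 0.227 in control libraries. The share of Cct4 was 12.2% ± 0.271 against 14.2% ± 0.425, and that of Cct7 was 6.64% ± 0.191 against 7.39% ± 0.0901 (SD, n = 3 each). These 3 shares were lower in 3 of 3 overexpression libraries than in any control library. Cct8 took 17.4% ± 0.592 in overexpression and 15.6% ± 0.106 in control libraries, and Cct5 took 18.1% ± 0.132 against 16.9% ± 0.455. Both shares were higher in every overexpression library. Cct3 was higher by a narrow margin, at 7.85% in its lowest overexpression library and 7.84% in its highest control library. The shares of Cct2 (16.8% ± 0.472 against 16.6% ± 0.225) and Cct6a (10.5% ± 0.889 against 10.1% ± 0.632) overlapped between the groups. The 8 shares have a fixed sum, so lower shares of some subunits oblige higher shares of others, and the directions are not separate observations. Shares within other gene sets were not computed. An even ring would give 12.5% for each gene, and Cct7 and Cct3 were the least abundant subunit transcripts in every library. The ratio of the highest to the lowest subunit was 2.84, 2.73 and 2.64 in overexpression libraries, against 2.56, 2.43 and 2.26 in control libraries. With 1 fixed length per gene, a change in isoform use would also move these shares, and isoforms were not analysed here.

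**Figure D3:**
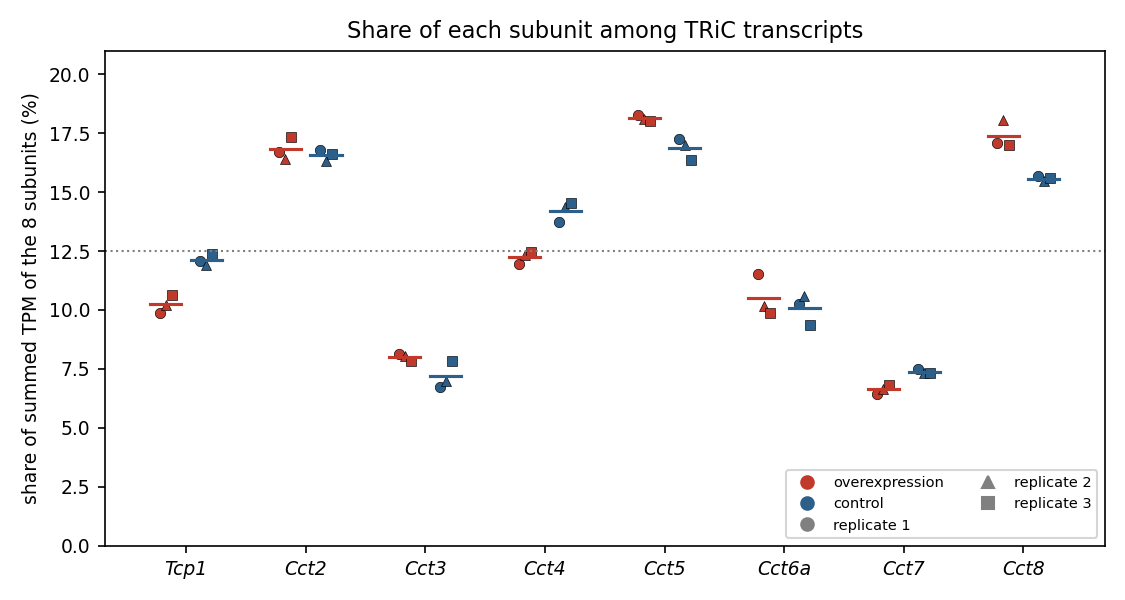
Share of each subunit in the summed TPM of the 8 TRiC genes in each library, with bars for group means and a dotted line at an even share of 12.5%. Tcp1, Cct4 and Cct7 lie lower in the overexpression libraries, Cct3, Cct5 and Cct8 lie higher, and Cct2 and Cct6a overlap.

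Smyd1 and Unc45b parted from each other. Smyd1 was the most abundant member, at 607, 615 and 669 TPM in overexpression libraries, against 299, 298 and 291 TPM in control libraries. Unc45b was at 69.5, 74.0 and 75.3 TPM with overexpression, against 58.7, 55.7 and 53.6 TPM in control libraries. Neither gene had overlapping groups, but the ratio of mean TPM was 2.13 for Smyd1 and 1.30 for Unc45b. Smyd1 had a log2 difference of 1.09 in TPM (SE 0.0778, adjusted p = 1.99e-05) and of 0.46 after rescaling (SE 0.0996, adjusted p = 0.00669). The TPM difference of Unc45b was 0.37 on the log2 scale (SE 0.0884, adjusted p = 0.00536), below the 0.55 median of all tested genes, and 62.2% of tested genes had a larger one. After rescaling its difference was -0.24 (95% confidence interval -0.46 to -0.03, unadjusted p = 0.0314, adjusted p = 0.0642). It was -0.10 under quantile normalization (adjusted p = 0.345) and 0.10 after removal of mitochondrially encoded genes (adjusted p = 0.34), so its direction depended on the scaling.

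The ratio of Smyd1 to Unc45b, which a single factor per library leaves unchanged, was 8.74, 8.30 and 8.89 in overexpression libraries and 5.09, 5.35 and 5.42 in control libraries. Relative to the geometric mean of the 8 TRiC subunits, Unc45b stood at 0.489 ± 0.0528 in overexpression and 0.800 ± 0.0335 in control libraries (SD, n = 3 each), without overlap. Smyd1 stood at 4.23 ± 0.586 in overexpression and 4.23 ± 0.170 in control libraries relative to the same mean, with overlapping groups. The position of Unc45b is chromosome 11, 82910550 to 82943403, plus strand, and that of Smyd1 is chromosome 6, 71213940 to 71322233, minus strand. For Unc45b the exons share 255 of 4493 bases with Unc45bos on the opposite strand, which was at 1.30 TPM in overexpression and 1.59 TPM in control libraries, and 151 with Slfn5os, at 1.75 against 2.65 TPM. For every member, the exact two-sided permutation test over the 3 against 3 libraries gave p = 0.1 in TPM, the smallest p this design allows.

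The cardiac myosin heavy chains are clients of UNC45B. Myh6, the fast adult isoform, was at 3712 ± 629 TPM in overexpression and 4293 ± 145 TPM in control libraries (SD, n = 3 each), which missed the threshold in TPM (-0.22 on the log2 scale, adjusted p = 0.151) and passed it as lower after rescaling (-0.85, adjusted p = 0.00596). Myh7, the slow isoform, rose to 363 ± 98.3 TPM in overexpression, against 66.4 ± 32.3 TPM in control libraries. Together they stood at 4255, 3288 and 4682 TPM in overexpression libraries and at 4505, 4312 and 4261 TPM in control libraries, which overlap. After rescaling the sum was 3417, 2445 and 3990 in overexpression libraries and 5641, 5089 and 5406 in control libraries, a ratio of means of 0.611 without overlap. Myh7 made up 8.84% ± 1.14 of the pair in overexpression and 1.53% ± 0.762 in control libraries.

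Per 1000 TPM of Myh6 and Myh7 together, Smyd1 stood at 143, 187 and 143 TPM in overexpression libraries, against 66.4, 69.1 and 68.3 TPM in control libraries. Unc45b stood at 16.3, 22.5 and 16.1 TPM per 1000 TPM of myosin in overexpression libraries, against 13.03, 12.9 and 12.6 TPM in control libraries. The geometric mean of the TRiC subunits stood at 34.9, 50.2 and 29.3 TPM per 1000 TPM of myosin with overexpression, against 15.8, 16.95 and 15.5 TPM in control libraries. All 3 quantities were higher per myosin transcript in every overexpression library, with group ratios of 2.32 for Smyd1, 1.43 for Unc45b and 2.37 for TRiC. The median of all tested genes shifted 1.46-fold in TPM, while the ratio of means of the myosin sum was 0.935. A typical tested gene was thus also higher per myosin transcript. Unc45b, with a ratio of mean TPM of 1.30, rose less than that typical gene. Overexpression replicate 2 had the lowest myosin sum and the highest value of all 3, and without it the log2 difference of Unc45b per myosin was the smallest of the leave-one-out values, at 0.34 in place of 0.49.

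**Figure D4:**
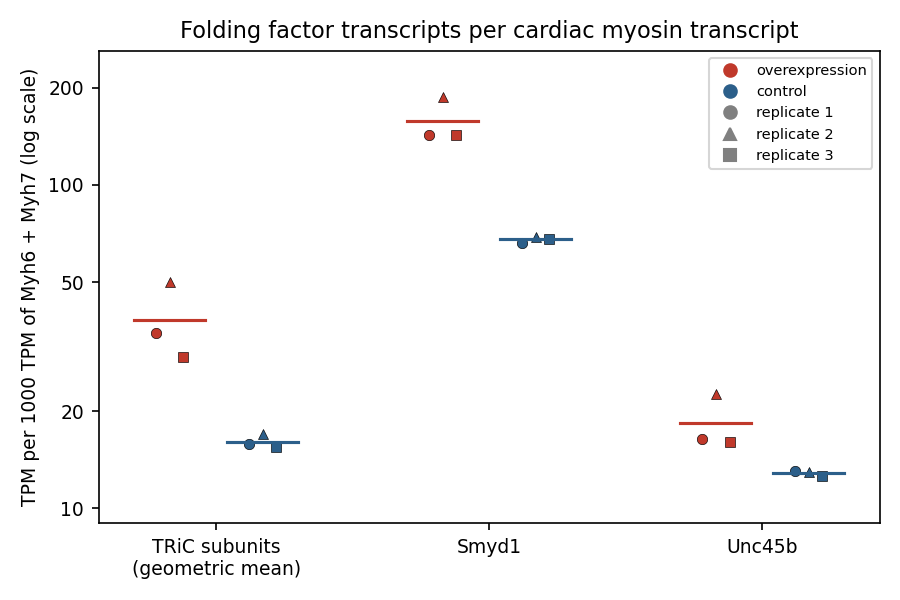
TPM of the TRiC subunits (geometric mean), Smyd1 and Unc45b per 1000 TPM of Myh6 and Myh7 together, on a log axis, with 1 point per library and bars for group means. Overexpression libraries lie above control libraries for all 3 quantities, with the narrowest gap for Unc45b. The 1.46-fold TPM shift of the median tested gene is not taken out of these values.

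Other genes of the folding pathway were taken from lists that were chosen with earlier results of these data known. Of their 64 genes 63 were in the table (Trim63 was not analysed here) and 61 were tested. In TPM 49 of these were called higher and 2 lower, where 59.0% of all tested genes were higher and 9.09% lower. After rescaling 27 were higher and 11 lower, where 22.2% of all tested genes were higher and 24.0% lower. Their median was 0.84 (TPM) and 0.28 (rescaled) on the log2 scale, beside 0.55 and 0.01 for all tested genes.

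Prefoldin hands unfolded actin and tubulin to TRiC. Of its 6 subunits 4 were called higher and 0 lower in TPM, and 1 higher and 2 lower after rescaling, shares near those of all tested genes. Pfdn4 rose to 27.2 ± 5.88 TPM in overexpression, against 11.0 ± 1.56 TPM in control libraries (SD, n = 3 each), with a log2 difference of 1.22 in TPM and 0.63 after rescaling. Pfdn5 was at 154 ± 2.91 TPM in overexpression and 142 ± 6.13 TPM in control libraries, not called in TPM (0.11, adjusted p = 0.231) and called lower after rescaling (-0.51, adjusted p = 0.00273). Vbp1, which encodes another prefoldin subunit, had 0.91 in TPM and 0.29 after rescaling (adjusted p = 0.0515), and Pfdn2 had 0.76 and 0.15 (adjusted p = 0.316).

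Phosducin-like proteins, which work with TRiC on its clients, were called higher in 3 of 3 in TPM and in 2 of 3 after rescaling. The share of all tested genes called higher was 59.0% in TPM and 22.2% after rescaling. Pdcl3 rose to 58.4 ± 3.14 TPM in overexpression, against 26.2 ± 0.958 TPM in control libraries. Txndc9 rose to 42.0 ± 5.40 against 21.5 ± 1.44 TPM, and Pdcl, a helper of G protein beta subunit assembly, had log2 differences of 0.79 in TPM and 0.20 after rescaling (adjusted p = 0.163). Tubulin folding cofactors, which take tubulin over from TRiC, were called higher in 5 of 5 in TPM and in 2 of 5 after rescaling, with 0 lower. Tbca, which binds beta-tubulin, rose to 291 ± 33.5 TPM in overexpression, against 109 ± 2.86 TPM in control libraries, and Tbce rose to 35.5 ± 3.55 against 14.4 ± 1.40 TPM. Tbcc had the smallest difference of the list, 0.51 in TPM and -0.08 after rescaling (adjusted p = 0.781).

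The list named HSP90 and HSP70 partners of UNC45B also holds general co-chaperones of HSP90. Of its 7 genes 6 were called higher and 0 lower in TPM, and 3 higher and 1 lower after rescaling. Shares of all tested genes were 59.0% higher and 9.09% lower in TPM, and 22.2% and 24.0% after rescaling. Hsp90aa1, the stress-inducible HSP90, rose to 344 ± 54.2 TPM in overexpression, against 105 ± 13.7 TPM in control libraries. Stip1, which links HSP70 to HSP90, rose to 205 ± 22.1 against 68.3 ± 3.09 TPM, with log2 differences of 1.56 in TPM and 0.94 after rescaling. Cdc37, the HSP90 co-chaperone of kinases, was at 27.9 ± 0.719 TPM in overexpression and 24.5 ± 0.994 TPM in control libraries, not called in TPM and lower after rescaling (-0.42, adjusted p = 0.00776). Of 3 heat shock transcription factors 2 were higher and 0 lower in TPM, and 1 was higher and 1 lower after rescaling. Hsf2 was called higher under both scalings (1.03 and 0.46). Hsf1 had 0.30 in TPM (adjusted p = 0.0441) and -0.28 after rescaling (adjusted p = 0.0654), and Hsf4 had -0.26 (adjusted p = 0.242) and -0.62 (adjusted p = 0.0218).

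Among clients of TRiC, tubulins had the highest list median. All 9 listed tubulin genes, a part of the tubulin family, were called higher in TPM and 8 after rescaling, with medians of 2.12 and 1.4996. Beside the client counts here, 59.0% of all tested genes were called higher and 9.09% lower in TPM. After rescaling these shares were 22.2% and 24.0%. Tubb2a rose to 153 ± 18.1 TPM in overexpression, against 22.4 ± 1.35 TPM in control libraries, and Tubb5 rose to 207 ± 21.5 against 46.9 ± 3.66 TPM. Tuba4a had the smallest difference, 0.58 in TPM and -0.05 after rescaling (adjusted p = 0.842). Actins were called higher in 4 of 6 and lower in 0 in TPM, and higher in 2 and lower in 1 after rescaling. Acta1, the skeletal actin, was at 5524 ± 171 TPM in overexpression and 159 ± 86.8 TPM in control libraries, and Actb rose to 619 ± 123 against 207 ± 60.5 TPM. Acta2, the smooth muscle actin, was at 110.3 ± 6.70 TPM with overexpression and 98.5 ± 7.51 TPM in control libraries (0.16 in TPM, adjusted p = 0.155, and -0.46 after rescaling, adjusted p = 0.00244). WD40 clients were higher in 6 of 6 in TPM and in 3 of 6 after rescaling. Gnb1 and Gnb2, G protein beta subunits, had rescaled differences of 0.48 and 0.28. Cdc20, an activator of the anaphase-promoting complex, stood at 4.45 ± 2.84 against 1.02 ± 0.387 TPM and 0.92 after rescaling, and cycling cell markers rose beside it. Fzr1 had the smallest rise in TPM, 0.41, and -0.17 after rescaling (adjusted p = 0.269).

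Myosin heavy chains were called higher in 3 of 6 and lower in 1 in TPM, and 3 were higher and 3 lower after rescaling. Shares of all tested genes were 59.0% higher and 9.09% lower in TPM, and 22.2% and 24.0% after rescaling. Myh10, a non-muscle myosin, rose to 45.2 ± 0.993 TPM in overexpression, against 8.997 ± 1.28 TPM in control libraries. Myh7b fell to 6.68 ± 4.26 against 16.2 ± 4.45 TPM (adjusted p = 0.0138), with groups that overlap in TPM. In the list of SMYD1 partners and myosin turnover, 4 of 5 were higher and 0 lower in TPM, and 2 higher and 2 lower after rescaling. Vcp, an ATPase that extracts ubiquitylated proteins, rose to 377 ± 16.4 against 169 ± 4.37 TPM. Stub1, a ubiquitin ligase that works with HSP70 and HSP90, was at 31.1 ± 0.891 against 29.6 ± 0.935 TPM and lower after rescaling (-0.53, adjusted p = 0.00297). Ankrd2, a stretch-responsive protein of the muscle I-band and no folding factor, had the largest rise of that list, to 40.4 ± 17.1 against 0.385 ± 0.0886 TPM.

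Of 7 close relatives of the members 5 were tested. In TPM 3 were higher and 1 lower, beside 59.0% and 9.09% of all tested genes. After rescaling 0 were higher and 1 lower, beside 22.2% and 24.0% of all tested genes. Unc45a, the general form of UNC45, was at 10.4 ± 0.408 TPM in overexpression and 5.90 ± 0.621 TPM in control libraries, with log2 differences of 0.72 in TPM and 0.17 after rescaling (adjusted p = 0.318). Smyd5 had 0.87 in TPM and 0.34 after rescaling (SE 0.163, adjusted p = 0.128), a rescaled difference larger than those of Tcp1, Cct4 and Cct7 with a larger error. Smyd3 fell under both scalings, to 0.9746 ± 0.139 against 1.91 ± 0.136 TPM. Cct6b and Cct8l1 did not reach the filter, at means of 0.112 and 0.0578 TPM in overexpression libraries and at 0.182 and 0 TPM in control libraries.

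**Figure D5:**
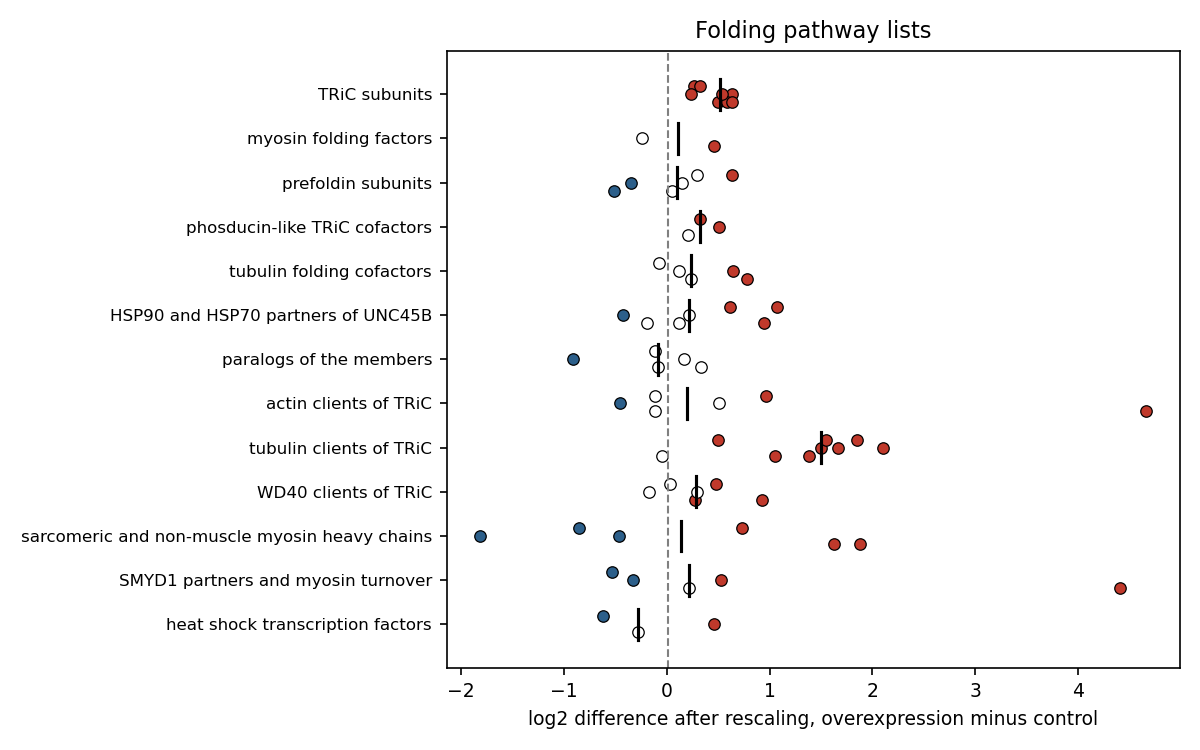
Log2 difference after rescaling, overexpression minus control, of each tested gene by list (red, called higher; blue, called lower; white, not called), with short lines for list medians and a dashed line for the median of all tested genes. The 8 TRiC subunits lie between 0.24 and 0.64, while most other lists spread to both sides of 0.

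RefSeq promoter windows, which run from 250 bases before to 50 bases after each listed start on GRCm38.p6, matched 9 members, 7 of them subunits. The GC box GGGCGG was found on either strand in a window of all 7 subunits with a window and in neither Unc45b nor Smyd1, against 35.7% of all 32851 windows. The CCAAT box was found in 4 of the 7 subunits and in Smyd1, against 37.4% of windows. The heat shock element GAANNTTC was found in Cct2 alone, against 7.86% of windows, the E-box CANNTG in 4 subunits and Unc45b (72.3%), and the M-CAT motif CATTCC in Cct3 and Cct8 (14.7%). Genes with more than 1 listed window had more chances of a match, and a match is only a description of letters. The 150 bases before the first listed start are printed for the 3 members whose stretch overlaps no GENCODE M21 exon, to set subunits with GC boxes beside Smyd1 without one. Capitals mark GC boxes and CCAAT boxes on either strand, and each sequence reads 5′ to 3′ on the gene's strand, at chr10:117063853-117064002 (minus) for Cct2, chr6:85451355-85451504 (plus) for Cct7 and chr6:71262282-71262431 (minus) for Smyd1. The RefSeq start of Smyd1 lies inside the GENCODE M21 bounds of the gene given above.
Cct2: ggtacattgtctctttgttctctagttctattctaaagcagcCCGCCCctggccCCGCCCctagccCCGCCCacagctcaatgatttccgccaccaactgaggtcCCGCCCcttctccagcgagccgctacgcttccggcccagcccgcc
Cct7: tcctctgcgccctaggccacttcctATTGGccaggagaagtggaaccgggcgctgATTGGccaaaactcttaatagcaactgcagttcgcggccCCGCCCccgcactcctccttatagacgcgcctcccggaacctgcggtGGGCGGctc
Smyd1: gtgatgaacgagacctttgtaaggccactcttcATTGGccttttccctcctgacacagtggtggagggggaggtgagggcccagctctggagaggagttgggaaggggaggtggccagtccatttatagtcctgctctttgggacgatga
Cct2 held 4 GC boxes and no CCAAT box in this stretch, Cct7 held 2 of each, and Smyd1 held 1 CCAAT box and no GC box. The GC content was 63.3% for Cct2 and for Cct7 and 56.0% for Smyd1, beside a median of 54.0% over the same stretch of all windows.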

How the data were processed

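Expression values are TPM per gene symbol, deposited by the authors, as a fixed total per library. Per the submitters' processing notes, the tools were STAR-Fusion 1.11.0, GATK 4.2.6.1, featureCounts 2.0.3 and edgeR 3.40.2, and the build was mm8. Their roles, the annotation and the gene lengths used are not stated there. Groups were taken from the genotype labels, and table columns were matched to samples by the number in the title. The labels do not say that samples are separate animals. By Ddx3y and Xist, overexpression replicate 1 came from another animal than the other overexpression libraries. Beyond that the p-values measure the spread between libraries, part of which may be technical. No batch is given.

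Testing was limited to genes whose mean reached 1 TPM. Values were taken as log2(TPM + 1) and fitted in limma 3.58.1 (R 4.3.3) with a variance trend, and two-sided p-values were adjusted by Benjamini-Hochberg over all tested genes, with 0.05 as threshold. Differences on this scale understate the change of low genes. Folds are ratios of mean TPM. The same fit was run after median of ratios rescaling, whose factors were 1.17 to 1.34 in overexpression and 0.788 to 0.847 in control libraries. TPM do not keep depth directly. Depth was estimated from value steps at GENCODE M21 exon lengths, where 49.3% to 58.7% of genes with at most 20 reads came out whole within 0.02 reads. The authors' lengths may differ, so read numbers are approximate.

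Members and gene lists were chosen with earlier results of these data known. Named genes are all members, Rbm20, Myh6, Myh7, and in each list the 2 with the smallest p, the largest rise and the largest fall (or smallest rise), with the 3 genes nearest in profile to TRiC, Unc45b and Smyd1. Other genes were named for context after their values were seen (Esr1, Ddx3y, Xist, Unc45bos, Slfn5os, Usp16, Mrpl18, Psph, Pradc1, Cct6b, Cct8l1), as was the ratio of Smyd1 to Unc45b. Alternatives were other pseudocounts, filters, scalings and limma settings, and each library left out. The script was tested on simulated libraries. Figures were drawn with matplotlib 3.10.9, and summaries used pandas 2.3.3 and numpy 2.4.6 under Python 3.11.15.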

Additional observations from a re-analysis of the deposited data

How the results depend on the processing

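No paired analysis was possible because the labels give the groups no shared replicate numbers. The TPM differences of the 8 TRiC subunits and Smyd1 kept their direction and their call in all 135 combinations of gene and setting (other pseudocounts, filters, scalings, limma settings, and each library left out). Without overexpression replicate 1, the library with Ddx3y, 10 members were called higher in TPM, and 10 in each other fit that left out a library. Rescaling combined with leaving out a library, added after the data had been seen, ended 7 of 54 such calls, those of Tcp1, Cct4 and Cct7, and called 6 to 9 members higher and 0 to 1 lower. The lowest count, 6, came without control replicate 3, and Unc45b was called lower only without overexpression replicate 3 (adjusted p = 0.0311). The cause was not tested. Unc45b reversed after rescaling (-0.24), under quantile normalization (-0.10) and in every rescaled fit with a library left out (-0.21, -0.20 and -0.31 without overexpression replicates 1 to 3, and -0.20, -0.28 and -0.26 without control replicates 1 to 3), and it lost its call without mitochondrially encoded genes (0.10).

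Over all genes, 7316 were called higher and 1127 lower in TPM. There were 2755 and 2972 after rescaling, 2963 and 2816 under quantile normalization, and 5179 and 1718 without mitochondrially encoded genes. The rescaled fits without overexpression replicates 1 to 3 called 2433, 2007 and 2490 genes higher and 2789, 2407 and 2773 lower. Those without control replicates 1 to 3 called 2647, 2164 and 2061 higher and 2841, 2542 and 2452 lower. Of the pathway list genes 49 were called higher and 2 lower in TPM, and 27 and 11 after rescaling. Shares of all tested genes were 59.0% higher and 9.09% lower in TPM, and 22.2% and 24.0% after rescaling. Leaving out a library moved the log2 difference of Rbm20 between 2.71 and 3.46 in TPM. TPM give no direct depth, and 3 libraries a group limit the precision of small differences such as that of Unc45b.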

Other observations

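The genes whose log2(TPM + 1), centred over the 6 libraries, lay nearest to the mean profile of the 8 TRiC subunits were Eif2s2, a subunit of translation initiation factor eIF2, Rrp36, a factor of ribosomal RNA processing, and Morn4. Their root mean square distances were 0.0277, 0.0296 and 0.0305 on the log2 scale, beside a median of 0.359 for all tested genes that are no members. Eif2s2 stood at 110.6 ± 9.44 TPM in overexpression and 51.9 ± 3.58 TPM in control libraries (SD, n = 3 each). Nearest to Unc45b were Elf1 (0.0125), Erf (0.0270) and Lamb2 (0.0304), and nearest to Smyd1 were Pcyt1a (0.0479), Dbnl (0.0490) and Socs6 (0.0538). Measured against the mean TRiC profile, to which each subunit itself contributes, the number of genes that are no members and lay nearer ran from 4 for Cct2 to 689 for Tcp1 among the 8 subunits. It was 683 for Smyd1, within the range of the subunits, and 6369 for Unc45b. With 6 libraries in 2 groups, such a distance mostly reflects the size of the group difference.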
